A study of Mus musculus with 6 samples.

Results

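Reactive gliosis and retinal stress genes were followed as a panel of 10 mouse genes: Gfap, Vim, Serpina3n, Lcn2, Lif, Osmr, Stat3, Socs3, Edn2 and Fgf2. They were chosen by name, and all 10 were among the 24062 genes of the count table and among the 16904 with a summed count of at least 10 that were tested. RNA-seq was available from 6 retinae at postnatal day 21 (P21), 3 from Rb1/p107 double knockout mice (DKO) and 3 from Rb1/p107/Hells triple knockout mice (TKO), all C57BL/6. Both groups carried Chx10-Cre, floxed Rb1 and the germline loss of p107, and TKO mice carried floxed Hells in addition. Chx10-Cre acts in a mosaic of retinal progenitors, so every retina also held cells that had kept the floxed genes. No retina without these deletions was included, so each value compares TKO with DKO and not with a normal retina.

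Reactive gliosis is the response of retinal glia to injury or disease of neurons. Müller glia, the radial glia that span the retina, then raise the intermediate filament protein GFAP, which they normally hold at a low level, while retinal astrocytes express it at all times. Injured photoreceptors are known to express EDN2, and LIF is induced in Müller glia when photoreceptors are injured. LIF acts through the receptor chain gp130 and the kinases JAK1 and JAK2 to activate STAT3, a transcription factor that raises acute-phase genes, Gfap and its own inhibitor Socs3, and FGF2 is a survival factor for photoreceptors.

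Of the 10 genes, 3 had all TKO retinae below all DKO retinae (Gfap, Lcn2 and Lif), against 20.6% of all genes tested, and Lcn2 alone passed the test of genotype, beside 9.2% of all genes that were lower in TKO and 7.35% that were higher. Lcn2 was 29.1 times higher in DKO than in TKO retinae, whereas Stat3 had near-equal means (2502 and 2485 normalized counts). Every one of the 10 genes had its highest value in the same retina, DKO replicate 3, which held the highest value for 12.9% of all genes. The log2 fold change (TKO over DKO) was below 0 for 8 of the 10 (8 to 10 under the other scalings) and had a median of -0.98, beside -0.011 over all genes. It was below 0 for 6 of the 10 without DKO replicate 3, with a median of -0.20.

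In the level of the 10 genes, DKO replicate 3 and TKO replicate 1 each stood apart from their own group. This does not hold for all genes, since TKO replicate 3 was the TKO retina nearest to DKO for the rod and dividing cell markers given below. TKO replicates 2 and 3 and DKO replicate 3 had 0 counts on the Y-linked genes Ddx3y, Eif2s3y, Kdm5d and Uty and between 11531 and 15051 counts on Xist, the RNA of the inactive X chromosome. TKO replicate 1 and DKO replicates 1 and 2 had 417 or more counts on each of the Y-linked genes and at most 7 on Xist. The labels give no sex. The division is uneven between genotypes, so each of the 10 genes is also given with a term for Y-linked counts and without DKO replicate 3, both as edgeR fits across all genes, and so are the counts of each list. Some other genes whose call changed in these fits are named, but not all. The shares of all genes lower and higher, given above, stand beside the count of each list. The term was added after these values were seen. TKO replicate 1 is alone with Y-linked counts among TKO retinae, and DKO replicate 3 alone without them among DKO retinae, so the division cannot be told apart from other properties of these 2 retinae.

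Hells, the gene that separates the groups, had 60.8, 68.4 and 83.4 normalized counts in TKO against 678, 523 and 395 in DKO replicates 1, 2 and 3 (log2 fold change -2.91, standard error (SE) 0.225, adjusted p = 0.00359), so each retina followed its label. Normalized counts are read counts scaled to a common library size, and adjusted p-values are from edgeR's quasi-likelihood test with Benjamini-Hochberg adjustment over all genes. The libraries held 10343907 to 14203098 counts. Retinae of a genotype that differ in Y-linked counts cannot be from the same animal. Whether all 3 libraries of a genotype came from separate animals is not stated, and p-values then measure the spread between these libraries. In a whole retina, fewer cells of a type and less RNA per cell cannot be told apart.

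The promoters of Gfap, Socs3 and Lcn2 are shown first, because theirs alone among the 10 genes held a match to a searched pattern. The letters TTCNNNGAA, the core of a STAT binding site and its own reverse complement, were searched in the RefSeq windows from 250 bases before to 50 bases after each start site (GRCm38.p6), where 8.30% of 32851 windows held them. They were found in the windows of 2 of the 10 genes, Gfap and Socs3. The letters TTGCNNAA, a pattern of C/EBP factors searched on both strands, were in 10.8% of all windows and in that of Lcn2 alone among the 10. Capitals mark the match, and all 3 stretches are on the minus strand, written 5′ to 3′ along the gene. The first is chr11:102897171-102897242, where the match spans the RefSeq start site. The second is chr11:117969472-117969560, with the match 154 bases before the start, and the third chr2:32387908-32387989, with the match 216 bases before it. All 3 RefSeq start sites lie inside the gene spans given below and not at their 5′ ends, since those spans come from another annotation.
Gfap: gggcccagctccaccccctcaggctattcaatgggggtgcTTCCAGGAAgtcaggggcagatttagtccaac
Socs3: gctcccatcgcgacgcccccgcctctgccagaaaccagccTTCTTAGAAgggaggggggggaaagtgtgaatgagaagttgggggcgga
Lcn2: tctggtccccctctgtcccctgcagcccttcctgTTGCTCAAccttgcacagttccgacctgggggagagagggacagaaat
A match describes the letters and is not evidence of binding, and a window without a match says nothing of the factor.

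Intermediate filament genes were examined first, since GFAP and vimentin make up the glial filaments that thicken in gliosis. Gfap (chr11:102887336-102900912, minus strand, GRCm38) had 1341, 2669 and 3640 normalized counts in TKO against 5595, 3948 and 11556 in DKO replicates 1, 2 and 3. The groups did not overlap, but TKO replicate 3 and DKO replicate 2 were close neighbours. The means were 2550 ± 1154 and 7033 ± 4003 (SD, n = 3 each), 2.76 times higher in DKO with a 95% interval from 1.36 to 5.58. The log2 fold change of -1.46 (SE 0.444) missed the threshold of 0.05 at an adjusted p of 0.0566. It passed with the term for Y-linked counts (-1.85, adjusted p = 0.00678) and did not pass without DKO replicate 3 (-0.90, adjusted p = 0.113). Reads on the lincRNA Gm26668, which overlaps Gfap on the other strand, could add to either gene, since the strand setting of the counting is not given in the sources used here.

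Vim (chr2:13573927-13582826, plus strand) encodes vimentin, which Müller glia also make at rest. It had 2609, 3192 and 4255 normalized counts in TKO against 4102, 4124 and 5177 in DKO replicates 1, 2 and 3. TKO replicate 3 lay above DKO replicates 1 and 2, so the groups overlapped. The difference was small beside that of Gfap (log2 fold change -0.41, SE 0.178, adjusted p = 0.146). It passed with the term for Y-linked counts (-0.57, adjusted p = 0.0341) and did not pass without DKO replicate 3 (-0.30, adjusted p = 0.298). The ratio of Gfap to Vim within a retina was 0.51, 0.84 and 0.86 in TKO and 1.36, 0.96 and 2.23 in DKO replicates 1, 2 and 3. This ratio needs no library scaling, and it was higher in each DKO retina than in each TKO retina. Per kilobase of exon, Vim stood above Gfap in TKO retinae (707 ± 176 and 605 ± 274 normalized counts per kilobase), and Gfap stood above Vim in DKO retinae (1667 ± 949 and 942 ± 129). Both gaps were within the spread of the 2 genes, so neither order is resolved.

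Of 11 intermediate filament and linker genes, Nes fell and Nefh rose in TKO retinae, and 9 did not pass. Nes, which encodes nestin and is used in progenitors and reactive glia, had 229 ± 54.1 normalized counts in TKO against 422 ± 44.4 in DKO retinae (log2 fold change -0.88, adjusted p = 0.0142). Nefh, the heavy neurofilament chain of large axons, had 2819 ± 132 and 2012 ± 254 (0.49, adjusted p = 0.0179). Nefl, the light chain and the filament gene with the largest counts, had 5788 ± 566 and 4961 ± 958 (0.22, adjusted p = 0.333). Over the list, the log2 fold changes had a median of -0.013, close to that of all genes, and the counts of 1 lower and 1 higher of 11 stand beside 9.2% and 7.35% of all genes. Without DKO replicate 3, 1 passed as lower and 2 as higher (Nefh and Synm, the filament linker synemin), and with the term for Y-linked counts 3 as lower (Gfap, Vim and Nes) and 1 as higher (Nefh).

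**Figure D1:**
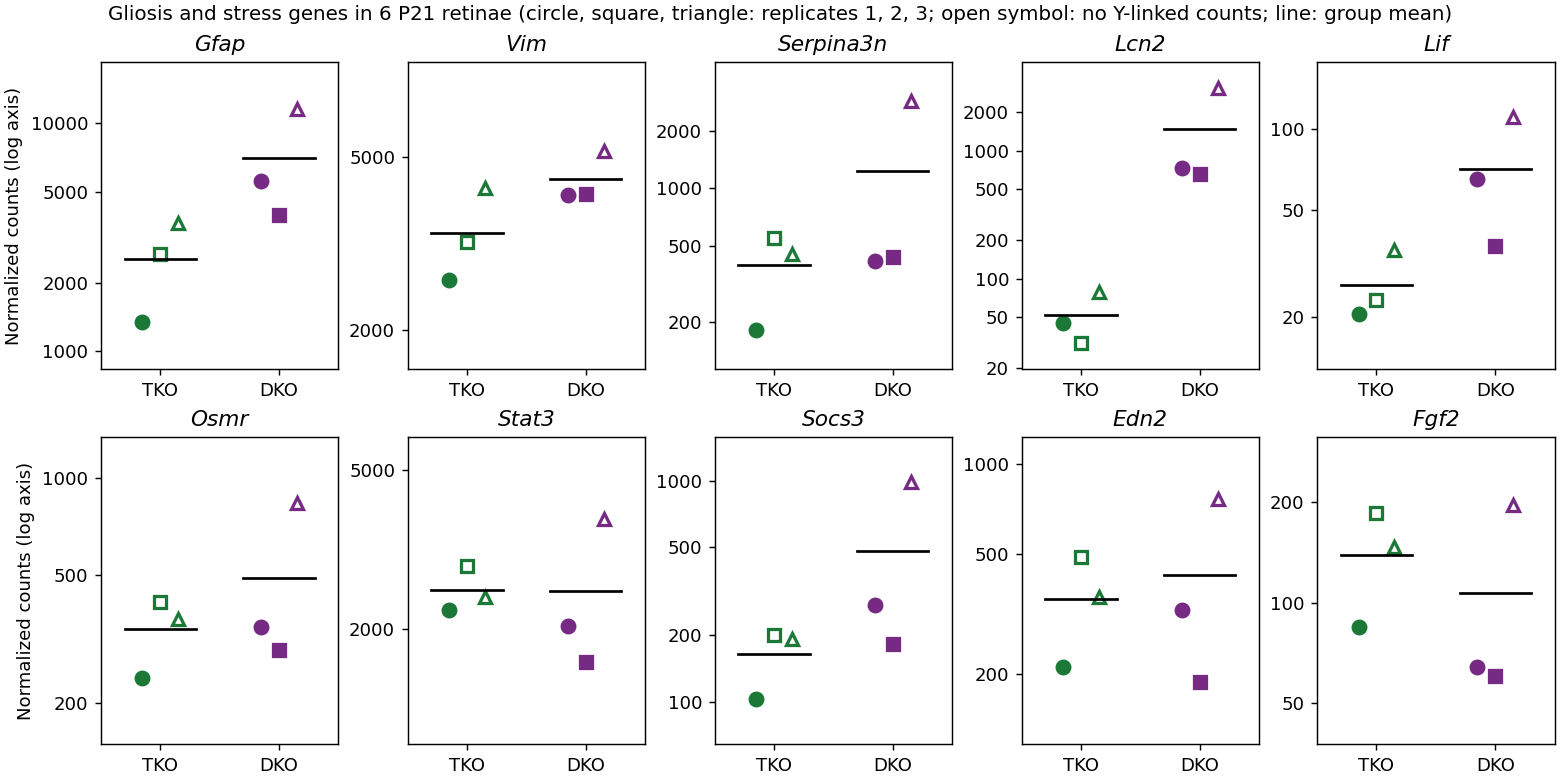
Normalized counts (log axes, a separate scale for each gene) of the 10 gliosis and stress genes in 3 TKO (green) and 3 DKO (purple) retinae, with symbols for replicates 1 to 3, open where a retina had 0 Y-linked counts, and a line at the group mean. DKO replicate 3 is the highest point in all 10 panels and TKO replicate 1 the lowest in 6, and Lcn2 shows the widest gap between groups, from 78.5 in the highest TKO to 661 in the lowest DKO retina.

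The secreted acute-phase proteins of the panel gave its widest differences and its widest spread. Lcn2 (chr2:32384633-32388252, minus strand) encodes lipocalin 2, an iron-siderophore binding protein that reactive glia secrete. It had 44.7, 31.6 and 78.5 normalized counts in TKO against 727, 661 and 3066 in DKO replicates 1, 2 and 3, from raw counts of 39, 30 and 64 against 772, 755 and 3551. All DKO retinae were far above all TKO retinae, and DKO replicate 3 was 4.42 times the mean of the other DKO retinae. The fold of 29.1 had a 95% interval from 9.34 to 90.8 (log2 fold change -4.86, SE 0.716, adjusted p = 0.00733). Lcn2 also met the 3 criteria of the study's call (base mean of at least 10, absolute log2 fold change of at least 1, adjusted p of at most 0.05), as did 4.38% of all genes in the same direction. Without DKO replicate 3 it still passed (-3.76, adjusted p = 0.00166), and so it did with the term for Y-linked counts (-5.16, adjusted p = 0.00464).

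Serpina3n (chr12:104406729-104414329, plus strand) encodes a secreted inhibitor of serine proteases that marks reactive astrocytes. It had 183, 550 and 455 normalized counts in TKO against 419, 439 and 2842 in DKO replicates 1, 2 and 3. DKO replicate 3 was 6.62 times the mean of the other DKO retinae, the largest such ratio of the 10 genes, and those other DKO retinae lay below TKO replicates 2 and 3. The groups therefore differed by a log2 fold change of -1.64 with a wide interval (-3.36 to 0.086, SE 0.752, adjusted p = 0.168), and by -0.11 without DKO replicate 3 (adjusted p = 0.862). With the term for Y-linked counts the log2 fold change was -1.95 and passed (adjusted p = 0.0119). Serpina3n has near-identical paralogs, and how reads with more than 1 alignment were counted is not given in the sources used here, so its counts are less certain. Of its 11-gene family, 5 were tested, 0 passed with edgeR or DESeq2 and 2 (Serpina3g and Serpina3i) had an unadjusted p under 0.05. The next in level, Serpina3g, had 21.5 ± 7.05 normalized counts in TKO against 42.9 ± 6.77 in DKO retinae (log2 fold change -1.0, adjusted p = 0.0567). Without DKO replicate 3, 0 of 4 tested passed. With the term for Y-linked counts 2 passed as lower, Serpina3n and Serpina3i, the latter with at most 12 raw counts in a retina.

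Lcn2 was also set against Gfap within each retina, which needs no library scaling. The ratio of Lcn2 to Gfap was 0.03, 0.01 and 0.02 in TKO and 0.13, 0.17 and 0.27 in DKO replicates 1, 2 and 3. It was higher in every DKO retina than in every TKO retina.

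The cytokine and receptor of the panel were lowly expressed. Lif (chr11:4257557-4272514, plus strand), the ligand made by stressed retina, had 20.6, 23.2 and 35.6 normalized counts in TKO against 64.9, 36.8 and 111 in DKO replicates 1, 2 and 3. The groups did not overlap, though DKO replicate 2 was level with TKO replicate 3. The raw counts lay between 18 and 128, so counting error was part of the spread. Lif was 2.68 times higher in DKO, with an interval from 1.36 to 5.26, and missed the threshold (log2 fold change -1.42, SE 0.425, adjusted p = 0.0543). It passed with the term for Y-linked counts (-1.65, adjusted p = 0.0270) and did not pass without DKO replicate 3 (-0.94, adjusted p = 0.116).

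Osmr (chr15:6813577-6874969, minus strand) encodes the oncostatin M receptor, which pairs with gp130 and is itself raised by STAT3. It had 240, 413 and 364 normalized counts in TKO against 345, 292 and 833 in DKO replicates 1, 2 and 3. TKO replicates 2 and 3 lay above DKO replicates 1 and 2, and only DKO replicate 3 lay above every TKO retina. The log2 fold change was -0.53 (SE 0.386, interval -1.42 to 0.35, adjusted p = 0.371) and 0.091 without DKO replicate 3 (adjusted p = 0.807). With the term for Y-linked counts it was -0.78 and passed (adjusted p = 0.0291).

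Of 8 tested ligands of the IL-6 family 0 passed with edgeR, 2 had an unadjusted p under 0.05 (Lif among them), and 1 (Lif) passed with DESeq2. Il6 had too few counts to be tested. Ctf1, cardiotrophin 1, was the other ligand named for its level, with 27.7 ± 1.13 normalized counts in TKO against 34.1 ± 6.24 in DKO retinae (log2 fold change -0.30, adjusted p = 0.457). Of 7 receptors of the family, 1 rose in TKO retinae and 0 fell. This was Lifr, the receptor that binds LIF, with 911, 847 and 665 normalized counts in TKO against 530, 388 and 567 in DKO replicates 1, 2 and 3 (log2 fold change 0.71, SE 0.165, adjusted p = 0.0242). Il6st, which encodes the shared chain gp130, had 2305 ± 236 and 2066 ± 500 (0.16, adjusted p = 0.545), and Cntfr, the receptor for ciliary neurotrophic factor, had 619 ± 71.7 and 714 ± 45.4 (-0.21, adjusted p = 0.206). Ligand and receptor thus lay on opposite sides of 0, Lif lower and Lifr higher in TKO retinae, of which Lifr passed. When DKO replicate 3 was left out, 0 ligands passed and Lifr alone of the receptors did, and with the term for Y-linked counts Lif, Osmr and Il6ra, a receptor for IL-6, passed as lower and Lifr as higher.

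Stat3 encodes the signal transducer at the centre of the pathway. The gene (chr11:100885098-100939540, minus strand) had 2228, 2878 and 2400 normalized counts in TKO against 2032, 1650 and 3772 in DKO replicates 1, 2 and 3. All TKO retinae lay between the lowest and the highest DKO retina. The log2 fold change was 0.010 (SE 0.274, interval -0.62 to 0.64, adjusted p = 0.984), and its sign turned under upper-quartile, total-count and Müller marker scaling. It was 0.44 without DKO replicate 3 (adjusted p = 0.0653) and -0.12 with the term for Y-linked counts (adjusted p = 0.684). These are levels of the mRNA, and the phosphorylation that activates STAT3 was not measured. Stat3 overlaps Stat5a on the other strand, which had 77.6 ± 6.17 and 86.4 ± 17.4 normalized counts.

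Socs3 (chr11:117966079-117970047, minus strand), the inhibitor that STAT3 induces and that blocks gp130 signalling, had 103, 200 and 193 normalized counts in TKO against 273, 182 and 982 in DKO replicates 1, 2 and 3. DKO replicate 2 lay below TKO replicates 2 and 3, and DKO replicate 3 was 4.31 times the mean of the other DKO retinae. The mean was 2.90 times higher in DKO (interval 1.13 to 7.41), with a log2 fold change of -1.54 (SE 0.591) that did not pass (adjusted p = 0.112). It was -0.46 without DKO replicate 3 (adjusted p = 0.315) and passed with the term for Y-linked counts (-1.81, adjusted p = 0.0151). The ratio of Socs3 to Stat3 was 0.05, 0.07 and 0.08 in TKO and 0.13, 0.11 and 0.26 in DKO replicates 1, 2 and 3. Here the groups did not overlap, although those of both genes did.

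Of 13 kinases, STATs and brakes of the pathway, 1 rose, 2 fell and 10 did not pass in TKO retinae. Pias3, which encodes an inhibitor of STAT3 binding to DNA, had 1721 ± 270 normalized counts in TKO against 923 ± 72.4 in DKO retinae (log2 fold change 0.90, adjusted p = 0.00691). Socs2, an inhibitor of growth hormone signalling, had 171 ± 39.7 and 314 ± 16.7 (-0.87, adjusted p = 0.0140). Ptpn6, a phosphatase of blood-derived cells, had 44.4 ± 17.3 and 98.6 ± 16.8 (-1.16, adjusted p = 0.0311). These 3 genes did not have their highest value in DKO replicate 3, and they passed without it. With the term for Y-linked counts Ptpn6 did not pass (-1.20, adjusted p = 0.0539), and Socs3 did. The kinase Jak1 (2715 ± 33.8 and 2543 ± 97.0) and the phosphatase Ptpn11 (2862 ± 132 and 2676 ± 11.99), the members with the largest counts, had log2 fold changes of 0.095 and 0.097.

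Neither photoreceptor stress ligand, Edn2 or Fgf2, passed with all 6 retinae. Edn2 (chr4:120161206-120167360, plus strand) encodes endothelin 2, which damaged photoreceptors release. It had 211, 492 and 361 normalized counts in TKO against 327, 188 and 765 in DKO replicates 1, 2 and 3. The groups overlapped throughout, with the lowest and the highest retina both DKO. The log2 fold change of Edn2 was -0.27 (SE 0.483, interval -1.37 to 0.84, adjusted p = 0.739), and it was 0.47 without DKO replicate 3 (adjusted p = 0.390) and -0.59 with the term for Y-linked counts (adjusted p = 0.147).

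Of 7 genes of the endothelin axis 0 passed with edgeR or DESeq2, 1 (Ednrb) had an unadjusted p under 0.05, and their median log2 fold change was -0.17. Ece1 and Ece2, the enzymes that cut endothelins to their active form, had 920 ± 55.4 and 994 ± 61.8 normalized counts in TKO against 1038 ± 31.1 and 1065 ± 44.7 in DKO retinae. Ednrb, the endothelin receptor of Müller glia and astrocytes, had 161, 143 and 151 in TKO and 173, 202 and 248 in DKO replicates 1, 2 and 3 (-0.46, adjusted p = 0.0885). Its groups did not overlap, and it is named after its values were seen. Of the 7, 0 passed without DKO replicate 3 or with the term for Y-linked counts.

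Fgf2 (chr3:37348346-37410108, plus strand) encodes basic fibroblast growth factor. It had 84.9, 186 and 147 normalized counts in TKO against 64.0, 60.4 and 196 in DKO replicates 1, 2 and 3. DKO replicates 1 and 2 were the lowest of the 6 retinae, and DKO replicate 3 was the highest. With all retinae the log2 fold change was 0.38 (SE 0.475, interval -0.71 to 1.47, adjusted p = 0.614), and it was -0.071 when libraries were scaled by Müller markers. Without DKO replicate 3, Fgf2 passed as higher in TKO (1.17, adjusted p = 0.0446), as did 8.9% of all genes, while 10.3% were lower. With the term for Y-linked counts the log2 fold change was 0.076 (adjusted p = 0.836). Fgf2 overlaps Nudt6 on the other strand, whose level was higher (242, 501 and 346 normalized counts in TKO against 195, 161 and 519 in DKO replicates 1, 2 and 3), and the order of the 6 retinae was the same for both genes. Without strand, reads of the pair cannot be told apart.

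Of 16 genes of the FGF axis, Spry1 fell in TKO retinae with edgeR and 15 did not pass. Spry1, a feedback inhibitor of FGF signalling, had 169, 187 and 207 normalized counts in TKO against 263, 271 and 396 in DKO replicates 1, 2 and 3 (log2 fold change -0.72, SE 0.182, adjusted p = 0.0311). The largest counts were those of Spred1 (1564 ± 26.9 and 1594 ± 54.1), another feedback inhibitor, and Fgf12 (1413 ± 70.3 and 1464 ± 112), which stays inside the cell. Their log2 fold changes were -0.028 and -0.050. With DESeq2 3 of the list passed (Spry1, Spry2 and Dusp6). In the fit without DKO replicate 3, Spry1 passed as lower and Fgf2 and Spry2 as higher (Spry2: log2 fold change 0.70, adjusted p = 0.00534), and with the term for Y-linked counts Fgfr1, Spry1 and Dusp6 passed as lower.

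**Figure D2:**
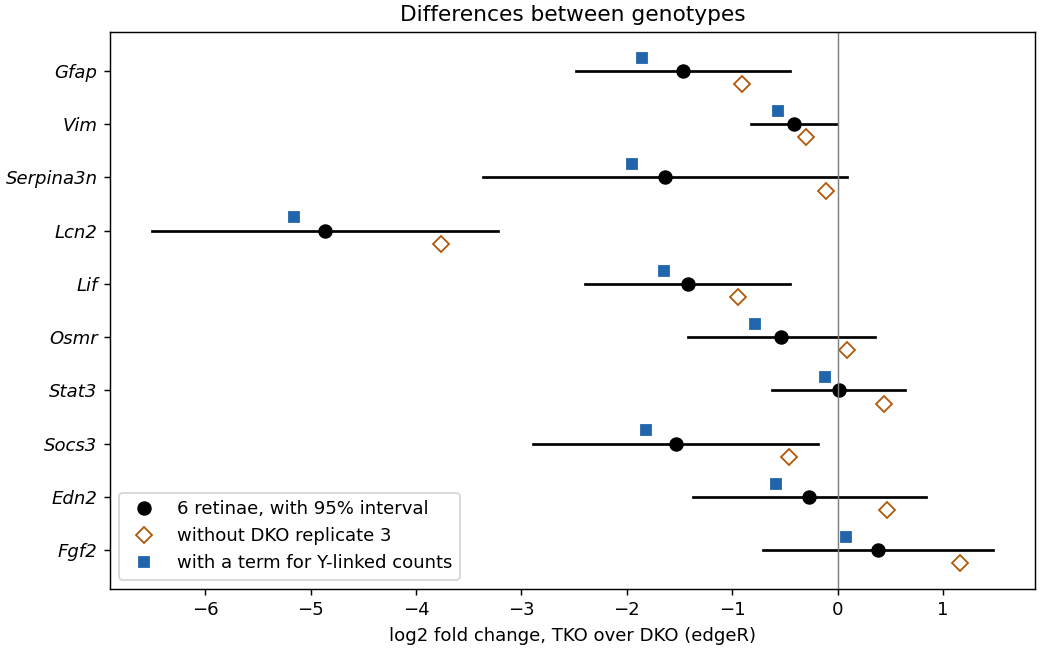
Log2 fold change (TKO over DKO, edgeR) of the 10 genes from 6 retinae (black circle, line for the 95% interval), without DKO replicate 3 (open diamond) and with a term for Y-linked counts (blue square). Lcn2 is the farthest from 0 in all 3 fits, from -5.16 to -3.76. Every diamond lies to the right of its circle and every square to the left, and the diamonds of Osmr, Stat3, Edn2 and Fgf2 lie above 0.

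The panel was next compared between retinae, because DKO replicate 3 was the highest for every gene. DKO replicate 3 was at least 2 times the mean of the other DKO retinae for 9 of the 10 genes, all but Vim (1.26 times), where 1.56% of the genes with a mean normalized count of at least 10 were. In TKO, replicate 1 was the lowest of all 6 retinae for 6 genes. The mean level of the 10 genes, on a log2 scale centred for each gene, was -1.0, -0.30 and -0.18 in TKO and 0.15, -0.19 and 1.53 in DKO replicates 1, 2 and 3. DKO replicate 2 was thus level with TKO replicates 2 and 3. For 4 genes (Fgf2, Edn2, Stat3 and Osmr) the TKO mean was above the mean of DKO replicates 1 and 2, by 2.24, 1.38, 1.36 and 1.06 times.

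The division by Y-linked counts followed the same retinae. In both genotypes the retinae without Y-linked counts were above those with them for 9 of the 10 genes, beside 12.5% of all genes, and Lcn2 was the exception, since its lowest value was in TKO replicate 2. Within each kind of retina, TKO was below DKO for 7 of the 10 genes (Gfap, Vim, Serpina3n, Lcn2, Socs3, Osmr and Lif), beside 27% of all genes. Among retinae without Y-linked counts this was already given for all 10, since DKO replicate 3 was the highest retina for each. The 7 were thus set by TKO replicate 1 against DKO replicates 1 and 2. The division was drawn after these values were seen, so this count is a description and no separate test of genotype. Among retinae with Y-linked counts, Gfap was at 1341 normalized counts (TKO replicate 1) and a mean of 4771 (DKO), and Socs3 at 103 and 228. Among retinae without them, Gfap had a mean of 3154 in the TKO retinae and 11556 in DKO replicate 3, and Socs3 had 196 and 982. Fitted with the term, these 7 genes passed as lower in TKO, beside 7.23% of all genes, and Stat3, Edn2 and Fgf2 did not. The term itself was positive for all 10 genes, with log2 fold changes from 0.42 (Vim) to 2.18 (Serpina3n), and it passed for 0 of them over all genes, with the lowest adjusted p at 0.0786 for Serpina3n and the highest at 0.886 for Lif, although all 10 had an unadjusted p under 0.05. Over all genes, 8 passed for the term.

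STAT3 target genes outside the panel were read to see whether they varied in the same retinae. Of 17 targets, 14 were highest in DKO replicate 3, beside 12.9% of all genes. The 14 include the 5 that are in the panel, already given as highest there. Pim1, Hif1a and Ccnd1, all outside the panel, were highest in another retina. Over the 17, the median of the log2 fold changes was -1.21, and -1.06 over the 12 that are not in the panel. In TKO retinae 4 fell (Lcn2, Myc, Timp1 and A2m) and Hif1a rose, beside 9.2% and 7.35% of all genes. Timp1, an inhibitor of matrix proteases, had 16.1, 8.42 and 33.1 normalized counts in TKO against 113, 49.9 and 715 in DKO replicates 1, 2 and 3 (log2 fold change -3.95, SE 1.04, adjusted p = 0.0368). Its groups did not overlap, DKO replicate 3 was 8.78 times the mean of the other DKO retinae, and without that retina the log2 fold change was -2.10 (adjusted p = 0.0334). Myc, which drives growth and division, had 26.4, 30.5 and 55.2 in TKO and 89.4, 77.9 and 116 in DKO (-1.34, adjusted p = 0.0230). A2m, which encodes a broad protease inhibitor of the acute phase, had 380, 640 and 657 in TKO and 1169, 716 and 1817 in DKO (-1.14, adjusted p = 0.0486). Hif1a, which encodes the oxygen-regulated transcription factor and had the largest counts of the list, had 10472 ± 977 in TKO and 8109 ± 127 in DKO retinae (0.37, adjusted p = 0.0411). Without DKO replicate 3 the median of the list was -0.26, with 3 genes lower (Lcn2, Timp1 and Myc) and 0 higher, and neither A2m (-0.75, adjusted p = 0.0866) nor Hif1a (0.38, adjusted p = 0.0574) passed. With the term for Y-linked counts the median was -1.54, with 11 lower, A2m among them, and 0 higher, and Hif1a did not pass (0.38, adjusted p = 0.0576).

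**Figure D3:**
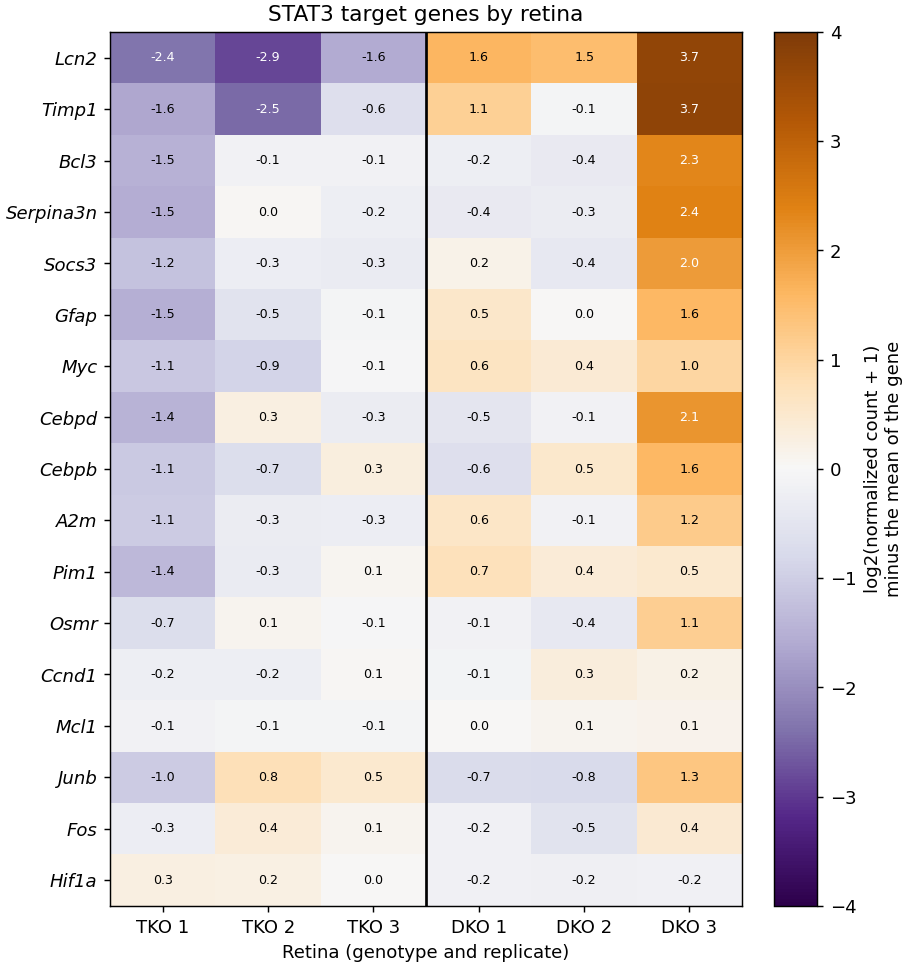
Log2(normalized count + 1) minus the mean of the gene (color and number) for 17 STAT3 target genes (rows, ordered by fold change) in the 6 retinae (columns), with a line between genotypes. The column of DKO replicate 3 holds the highest value of 14 genes, and the rows of Bcl3, Serpina3n and Cebpd are high in that retina and near their mean or below it in the other 5.

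Genes that reactive astrocytes raise after many kinds of injury were read next. Of 13 pan-reactive genes, 5 of them in the panel, 6 fell in TKO retinae and 0 rose, beside 9.2% and 7.35% of all genes. The median log2 fold change was -1.36. The 6 were Lcn2, S1pr3, Steap4, Cxcl10, Cp and Timp1. Steap4, a metalloreductase of iron and copper, had 25.2, 33.7 and 81.0 normalized counts in TKO against 487, 254 and 1245 in DKO replicates 1, 2 and 3 (-3.84, SE 0.655, adjusted p = 0.0099). Cxcl10, a chemokine induced by interferon, had 12.6, 5.26 and 20.9 in TKO and 112, 58.7 and 218 in DKO (-3.34, adjusted p = 0.0106). Both had groups far apart, in the same way as Lcn2. S1pr3, a receptor for sphingosine phosphate, had 612 ± 158 in TKO and 1355 ± 187 in DKO retinae (-1.15, adjusted p = 0.00798), and Cp, the copper-carrying ferroxidase ceruloplasmin, had 4370 ± 967 and 8089 ± 2116 (-0.89, adjusted p = 0.0270). Without DKO replicate 3, 6 of the 13 passed as lower (median -0.90). With the term for Y-linked counts 11 did (median -1.43), Cd44 among them (-1.04, adjusted p = 0.0119). The lists were written with earlier results of these data known, so their counts are descriptions.

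For each of the 10 genes, the 3 genes with the most similar values over the 6 retinae were ranked among 14975 genes by the root-mean-square difference of centred log2 values. Nearest to Gfap were G530011O06Rik (0.14), Dab2 (0.23) and Serping1 (0.25), and nearest to Lif were Dab2 (0.16), Gbp2 (0.22) and A2m (0.23). Serpina3n was nearest to Bcl3 (0.11), Cebpd (0.18) and Socs3 (0.33), and Socs3 to Bcl3 (0.25), Chil1 (0.25) and Serpina3n (0.33). Serpina3n and Socs3 were each among the 3 nearest of the other, and no other pair of the 10 genes was. Bcl3, which encodes a partner of NF-kB and was the first neighbour of both, had 32.1, 83.1 and 82.2 normalized counts in TKO against 78.1, 70.9 and 465 in DKO replicates 1, 2 and 3.

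Lcn2 had no close neighbour, and those ranked first were Steap4 (0.58), Cxcl10 (0.77) and Lrrc10b (0.83). Stat3 was nearest to Tirap (0.11), Zdhhc23 (0.12) and Fos (0.14), Osmr to Sbno2 (0.15), Fhad1 (0.16) and Ppap2b (0.16), and Vim to Ddr1 (0.06), Sertad1 (0.06) and Rhbdf1 (0.07). Edn2 was nearest to Gadd45b (0.17), Pcolce (0.21) and A230020J21Rik (0.25), and Fgf2 to its overlapping gene Nudt6 (0.11), then Bst1 (0.12) and Marveld3 (0.23). Gfap and Lif shared a neighbour, as did Serpina3n and Socs3, and the other 6 genes shared none with another of the 10. The points behind each value are 6 libraries of 2 genotypes, and the closeness is a description.

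Per kilobase of exon, the order of levels in DKO retinae was Gfap (1667 ± 949 normalized counts per kilobase), Vim (942 ± 129), Serpina3n (598 ± 675), Lcn2 (566 ± 522), Edn2 (292 ± 206), Stat3 (260.8 ± 119), Socs3 (166 ± 151), Osmr (40.5 ± 24.6), Lif (16.3 ± 8.55) and Fgf2 (15.7 ± 11.4). No step in this order was larger than the sum of the SDs of both genes. In TKO retinae the order was Vim (707 ± 176), Gfap (605 ± 274), Stat3 (263 ± 35.3), Edn2 (242 ± 96.0), Serpina3n (192 ± 92.3), Socs3 (57.2 ± 18.6), Osmr (28.0 ± 7.37), Fgf2 (20.6 ± 7.54), Lcn2 (19.7 ± 9.24) and Lif (6.08 ± 1.84). The steps from Gfap to Stat3, from Serpina3n to Socs3, from Socs3 to Osmr and from Lcn2 to Lif were larger than that sum. Lcn2 stood beside Serpina3n in DKO and 4 places below it in TKO retinae.

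Markers of the cell types that make or surround these genes were read beside them, and their part in the results was not tested. Of 10 Müller glia markers, 5 rose and 2 fell in TKO retinae, and their summed level was 67806 to 72423 normalized counts in TKO against 48868 to 52131 in DKO retinae. Without Glul, the marker with the largest counts, the other 9 summed to 37888 to 40822 in TKO and 35725 to 38526 in DKO retinae, which overlap. All 10 were detected in every retina. Without DKO replicate 3 and with the term for Y-linked counts, again 5 rose and 2 fell. Glul, the glutamine synthetase of Müller glia, had 31230 ± 3862 in TKO and 14069 ± 1445 in DKO retinae (log2 fold change 1.15, adjusted p = 0.00548), and Dkk3 had 14977 ± 1991 and 15620 ± 885 (-0.061, adjusted p = 0.767). The ratio of Gfap to Glul was 0.04, 0.08 and 0.13 in TKO and 0.36, 0.31 and 0.85 in DKO replicates 1, 2 and 3. Relative to each marker in turn, Gfap was higher in every DKO than in every TKO retina for 8 of the 10, as it was without a marker. The exceptions were Sox9 and Crym, the 2 that fell, for which the ratios overlapped (Gfap to Sox9 at 13.4, 15.4 and 24.1 in TKO and 20.3, 15.4 and 34.8 in DKO replicates 1, 2 and 3). DKO replicate 3 had a summed Müller marker level near that of the other DKO retinae. Of 5 astrocyte markers 0 passed with edgeR and all retinae, 3 had an unadjusted p under 0.05 and 2 passed with DESeq2. Without DKO replicate 3, Aldh1l1 passed with edgeR as higher in TKO retinae (log2 fold change 1.33, adjusted p = 0.00269) and S100b as lower (-0.47, adjusted p = 0.0496). With the term for Y-linked counts 0 passed. The summed level of the astrocyte markers was 2931 to 3431 in TKO and 2521 to 2996 in DKO retinae. Slc1a2 and Gja1 had the largest counts among them.

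Microglia, the resident immune cells of the retina, had 10 markers of which 6 fell in TKO retinae and 0 rose (8 fell without DKO replicate 3 and 4 with the term for Y-linked counts). Their summed level was 1857, 2418 and 3340 normalized counts in TKO against 4967, 5953 and 3919 in DKO replicates 1, 2 and 3. DKO replicate 3, the highest retina for the 10 genes, was thus the lowest DKO retina for microglia, and 0 of the 10 markers had their highest value there. All 10 rod markers rose in TKO, with a summed level of 756128, 649316 and 375479 in TKO and 132261, 128311 and 244921 in DKO. All 9 markers of dividing cells fell, with 585, 1027 and 2251 in TKO and 11874, 8896 and 5609 in DKO. All 10 rod and all 9 dividing cell markers also passed without DKO replicate 3 and with the term for Y-linked counts. For rods and dividing cells DKO replicate 3 lay between the other DKO retinae and the TKO retinae, whereas for the gliosis and stress genes it lay farthest from the TKO retinae.

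**Figure D4:**
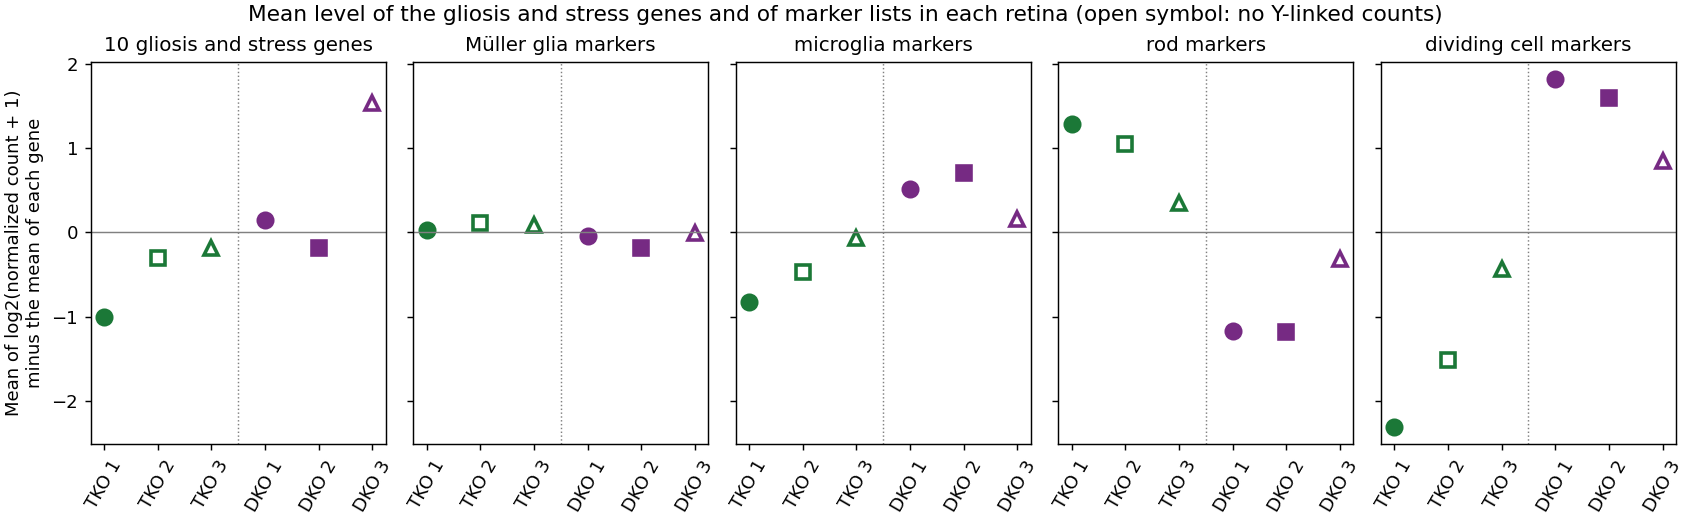
Mean of log2(normalized count + 1), centred for each gene, over the 10 gliosis and stress genes and over 4 marker lists in TKO (green) and DKO (purple) retinae, with symbols for replicates 1 to 3 and open symbols where a retina had 0 Y-linked counts. The 10 genes are highest in DKO replicate 3 (1.53), while microglia, rod and dividing cell markers place that retina between the other DKO retinae and the TKO retinae.

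Markers of tissue that can come along with a dissected retina also differed. Of 9 lens markers 5 rose in TKO retinae, and their summed level was 734, 3568 and 611 normalized counts in TKO against 159 to 171 in DKO retinae, so TKO replicate 2 stood out. Cryaa and Cryba1, lens crystallins, led the list. Of 8 markers of the retinal pigment epithelium 1 rose, with a summed level of 1764, 3134 and 1151 in TKO and 328, 1241 and 1419 in DKO, and Ttr and Dct had the largest counts. Of 9 endothelial markers, led by Kdr and Flt1, 1 rose, with a summed level of 5477 to 6869 in TKO and 5634 to 7183 in DKO retinae. The passing marker of the pigment epithelium and endothelial lists, Rpe65 and Pecam1, did not pass with the term for Y-linked counts (adjusted p = 0.0513 and 0.0562). In that fit 0 of either list passed, and 5 lens markers did. Without DKO replicate 3, 4 lens markers passed as higher, and Lenep no longer did (adjusted p = 0.0581). In the same fit 1 pigment epithelium marker and 2 endothelial markers (Pecam1 and Esam) passed as higher. The part of these tissues in the values of the 10 genes was not tested.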

How the data were processed

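RNA from 3 TKO and 3 DKO retinae was sequenced as paired-end TruSeq Stranded mRNA libraries. The deposited values are raw counts per gene. The paper names STAR and HTSeq on GRCm38, with up to 3 alignments per read, whereas the submitters' processing notes name TopHat2, featureCounts and mm10, so the counter is uncertain. Genes with a summed count under 10 were removed, libraries were scaled by TMM, and genotypes were compared with edgeR 4.0.16 (quasi-likelihood F test, R 4.3.3) with Benjamini-Hochberg adjustment over 16904 genes, where the paper used DESeq2. A normalized count is the count over a library's TMM-scaled size, set relative to the mean size, and standard errors were taken as the size of the log2 fold change over the root of its F statistic. The fit was tested on data simulated with the same dispersion for every gene, so this does not gauge it at the spread seen among these retinae. Between replicates, chi-square per degree of freedom was 8.61 to 25.3, above sampling noise. Coordinates and exon lengths come from GENCODE M21 and promoters from RefSeq.

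The genes and lists were chosen with earlier results of these data known. Named from each list were the genes with an adjusted p of at most 0.05, at most 6, and the 2 with the largest counts (markers: the latter only). Alternatives were DESeq2 1.42.0, limma 3.58.1 (voom), other scalings, filters and dispersion estimates, a block for the replicate number, each retina left out and, added after the data were seen, a term for Y-linked counts. Retinae that share a number did not deviate together (correlations of 0.069, -0.045 and -0.18 over 14976 genes), so they are not treated as pairs.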

Additional observations from a re-analysis of the deposited data

How the results depend on the processing

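Lcn2 passed in all 18 alternatives (log2 fold change -5.31 to -3.76, adjusted p 1e-07 to 0.0425). Lif passed in 9, Gfap in 5, Vim in 3, Serpina3n, Socs3 and Osmr in 2 each, Fgf2 in 1, and Stat3 and Edn2 in 0. The number of the 10 genes that passed was 1 in the fit reported, 2 with DESeq2, 2 with robust dispersion, 2 with at least 10 counts in every library, 3 without the filter, 3 with total counts as the scaling, 7 with Müller marker scaling, 7 with the term for Y-linked counts, and 1 to 4 with a retina left out (4 without TKO replicate 3, and 2 without either DKO replicate 2 or 3). The 7 with Müller marker scaling stand beside 9937 of all 16904 genes that passed as lower in that fit, so most genes did. Glul, itself higher in TKO retinae, had the largest counts of the markers used for that scaling. Stat3 turned to -0.020 with upper-quartile scaling, -0.14 with total counts, -0.45 with Müller marker scaling, -0.00092 with at least 10 counts in every library and -0.12 with the term, and ranged from -0.21 to 0.44 with a retina left out. Fgf2 turned to -0.071 with Müller marker scaling. With a retina left out, Edn2 ranged from -0.62 to 0.47 and Osmr from -0.80 to 0.091. Total counts moved the median of all genes by -0.16 and Müller marker scaling by -0.47. Over all genes, 2799 passed (1243 higher, 1556 lower), 3388 with total counts (778 higher, 2610 lower), 10356 with Müller marker scaling (419 higher, 9937 lower), 561 at an adjusted p of 0.01, and 647 to 3590 with a retina left out (1307 and 712 without TKO replicates 1 and 2, 811 and 647 without DKO replicates 1 and 2). With the replicate block 106 genes passed, Lcn2 among them (adjusted p = 0.019). The numbers only name the retinae, so this is no measure of a weaker effect. The cause of these changes was not tested. With 3 retinae a genotype and a spread of 2.93 times among DKO retinae for Gfap, its fold of 2.76 was poorly resolved.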
